A study of Mus musculus with 6 samples.

Results

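Cells recognise foreign or misplaced RNA and DNA through a small set of germline-encoded sensor proteins, and 10 genes of this system were followed here in early LPre-B cells, a cycling stage of bone marrow B cell precursors, from mice with a B lineage deletion of Upf1. They were chosen by name: the RIG-I-like receptors Ifih1, Ddx58 (also called Rigi) and Dhx58, their shared adaptor Mavs, the double-stranded RNA kinase Eif2ak2, the Z-form nucleic acid sensor Zbp1, the RNA-editing enzyme Adar, the DNA sensor Cgas, and the endosomal Toll-like receptors Tlr7 and Tlr9. All 10 had a row among the 13426 genes of the table. The RNA-seq libraries came from bone marrow cells sorted by a surface marker gate that included Lineage-, B220+, sIgM-, CD43+, CD2- and large size by forward scatter. The 3 Ctrl libraries were from mice with genotype Upf1 Flox/Flox, Mb1 +/+, and the 3 cKO libraries were from mice with genotype Upf1 Flox/Flox, Mb1 Cre/+. Both groups therefore carried floxed Upf1 on both alleles, and they differed in 1 copy of Cre in the Mb1 (Cd79a) locus, which drives Cre in the B lineage and takes the place of 1 Mb1 copy. The methods describe age-matched adult male and female mice on a C57BL/6 background and independent biological replicates. UPF1 is the RNA helicase at the centre of nonsense-mediated decay, the pathway that degrades transcripts on which translation ends too early.

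RIG-I (Ddx58) binds short double-stranded RNA with a 5′ triphosphate, MDA5 (Ifih1) assembles along long double-stranded RNA, and LGP2 (Dhx58) binds the same kind of ligand but lacks the signalling domains and modulates the other two. RIG-I and MDA5 signal through MAVS on mitochondria to the kinases TBK1 and IKKε and the transcription factors IRF3 and IRF7, which induce type I interferon. Interferon in turn raises the transcription of most of these sensors. PKR (Eif2ak2) halts translation when double-stranded RNA activates it, ADAR1 (Adar) edits double-stranded RNA and so keeps self RNA from being sensed, ZBP1 starts cell death through RIPK3 and MLKL, cGAS makes the second messenger cGAMP on cytosolic DNA, and TLR7 and TLR9 read single-stranded RNA and unmethylated CpG DNA inside endosomes.

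Transcripts of 8 of the 10 sensor genes were higher in the cKO libraries, Tlr9 was lower, and Mavs did not pass the test. The increases in mean normalised reads ran from 1.60-fold for Adar to 8.73-fold for Tlr7, and Tlr9 was 2.16-fold lower. Normalised reads are the reads of a gene scaled to the library size, per 1e6 reads. Differences are given as the log2 fold change of cKO against Ctrl on log2(normalised reads + 1), with adjusted p from limma over all genes and 0.05 as the threshold. Much of the transcriptome moved at that threshold, 52.7% of genes in all, 27.7% to higher and 25.0% to lower levels, so the share of called members has to be read against these values. The median log2 fold change of the 10 genes was 1.21, and that of all genes was 0.01. No library overlapped between the groups for 8 genes that were higher and 1 that was lower, against 30.9% and 28.0% of all genes. Of all called genes, 52.6% were higher in the cKO libraries. That share was 72.8% with scaling to total reads, which moved the median of all genes to 0.19, and 40.7% under median centring.

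**Figure D1:**
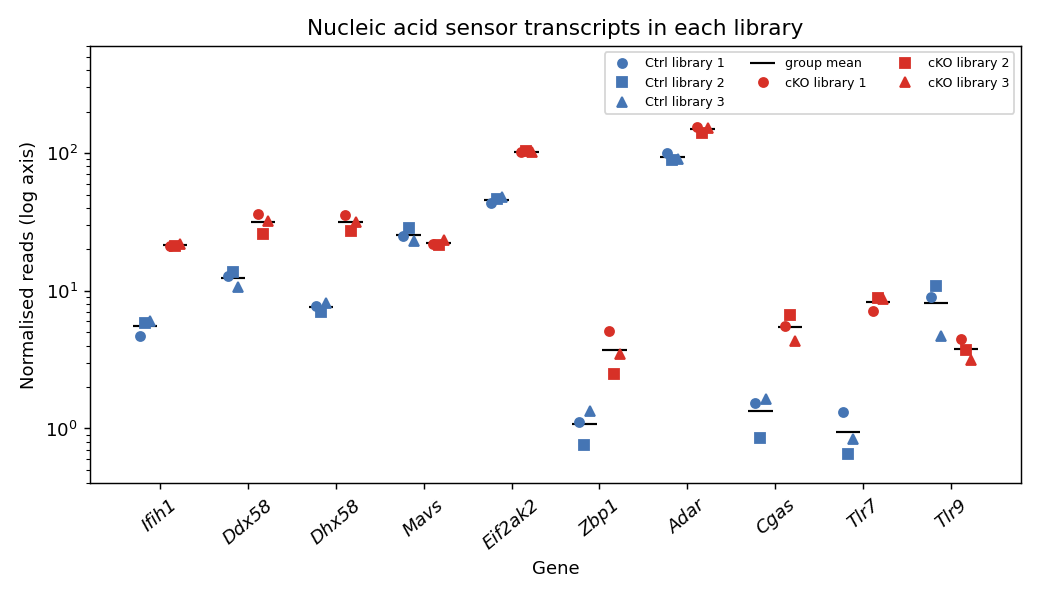
Normalised reads of the 10 nucleic acid sensor genes in each of the 6 libraries, on a log axis. Points are single libraries, shapes give the library number and black lines are group means (n = 3 per group). For 8 genes all cKO points lie above all Ctrl points, the points of Mavs overlap, and the lowest Ctrl point of Tlr9, at 4.72, lies just above its highest cKO point, at 4.44.

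Total reads ranged from 9732498 to 11006834 per library. The row of the targeted gene, Upf1, was not lower in the libraries labelled cKO: it ranged from 203 to 260 normalised reads in Ctrl and from 283 to 308 in cKO (log2 fold change 0.31, adjusted p = 0.00696 by limma). A sum over the whole gene does not resolve the exons that Cre removes, so this row does not check the deletion. Without Ctrl library 2 the log2 fold change of Upf1 was 0.19, with scaling to total reads it was 0.51, and the call was lost under median centring (0.20, adjusted p = 0.0645). Groups are named here by their labels. Cd79a, of which the cKO mice carry 1 copy replaced by Cre, went with the labels and ranged from 213 to 234 in Ctrl and from 71.6 to 75.2 in cKO. All 16 listed marker genes of pro-B and early pre-B cells had a row, and their sum was 3158 to 3460 in Ctrl and 3599 to 3857 in cKO. Of these 16 markers 8 were higher in cKO and 3 were lower, with log2 fold changes from -1.58 for Cd79a to 2.07. Neutrophil markers also moved with the genotype. All 12 had a row, 7 were higher in cKO, and their sum was 16.0 to 136 in Ctrl and 361 to 501 in cKO. Plasmacytoid dendritic cells are known for high Tlr7 and Tlr9, and 9 of 12 of their markers had a row, of which 5 were higher. The sum of these markers was 299 to 326 in Ctrl and 342 to 369 in cKO. Irf8 and Tcf4 made up most of this sum, with means of 164 and 135 in Ctrl, and the sum therefore says little of the other 7. The higher markers were Tcf4, Ccr9, Cox6a2, Bst2 and Runx2, with log2 fold changes of 0.24, 0.80, 0.90, 1.12 and 1.74, and Bst2 also stands among the interferon-stimulated genes listed. The defining gene Siglech had 2 to 6 reads in Ctrl and 5 to 11 in cKO and was not called (adjusted p = 0.175). Monocyte and macrophage markers, of which 9 of 12 had a row, summed to 71.8 to 109 in Ctrl and 90.3 to 118 in cKO. Few markers of other cells had a row, and their sums did not overlap between the groups. Such a gap is common here, since 30.9% of all genes had cKO libraries all above Ctrl and 28.0% all below. The 3 T cell markers summed to 69.3 to 102 in Ctrl and 33.1 to 38.9 in cKO. Of these, 1 was higher and 1 lower. The 2 natural killer cell markers summed to 1.17 to 1.59 in Ctrl and 3.79 to 5.27 in cKO. They had only 10 to 15 reads together in each Ctrl library. The 5 erythroid markers summed to 20.6 to 25.2 in Ctrl and 13.9 to 19.1 in cKO. The sums of 10 mature B cell markers overlapped, at 128 to 132 in Ctrl and 119 to 136 in cKO, although 5 of the 10 were higher and 3 were lower. In bulk samples such as these, a different number of cells of a type and a different amount of RNA per cell cannot be told apart. The part of these cell types in the sensor results was not tested. Ctrl library 1 had a neutrophil marker sum of 136 against 21.8 and 16.0 in the other Ctrl libraries, and it was the highest Ctrl library for 2 of the 10 sensors, Adar and Tlr7.

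The promoters of these genes are shown because interferon-driven transcription acts through short GAAA repeats, the interferon-stimulated response element. RefSeq windows of 300 bases (GRCm38.p6, 250 bases before to 50 after the annotated start) were found for 7 of the 10 genes, in 9 windows. No window was used for Dhx58, Zbp1 and Tlr7. The motif of GAAA, any 2 bases and GAAA, searched on both strands, was present in 3 of the 9 windows, those of Ifih1, Ddx58 and Eif2ak2, and in 3.44% of all 32851 windows. The spacing with 1 base less, GAAANGAAA, was added after the windows had been read. It was present in Ddx58 and in 1 of 3 Adar windows, and in 3.17% of all windows. The matches did not overlap each other. Since the shorter spacing was chosen from these windows, its matches support nothing about them. A match is a string of letters and was not tested as a binding site. The 4 windows with a match are given 5′ to 3′ on the strand of the gene, with the matches in capitals. They are Ifih1 (chr2:62646206-62646505, minus strand), Ddx58 (chr4:40239776-40240075, minus strand), Eif2ak2 (chr17:78882523-78882822, minus strand) and Adar (chr3:89730468-89730767, plus strand).
Ifih1: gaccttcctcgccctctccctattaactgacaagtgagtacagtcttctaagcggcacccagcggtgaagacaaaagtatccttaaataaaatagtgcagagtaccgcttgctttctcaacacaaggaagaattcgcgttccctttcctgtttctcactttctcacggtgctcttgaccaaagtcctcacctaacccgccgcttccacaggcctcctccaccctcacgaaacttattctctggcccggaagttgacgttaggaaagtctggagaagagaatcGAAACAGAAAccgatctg
Ddx58: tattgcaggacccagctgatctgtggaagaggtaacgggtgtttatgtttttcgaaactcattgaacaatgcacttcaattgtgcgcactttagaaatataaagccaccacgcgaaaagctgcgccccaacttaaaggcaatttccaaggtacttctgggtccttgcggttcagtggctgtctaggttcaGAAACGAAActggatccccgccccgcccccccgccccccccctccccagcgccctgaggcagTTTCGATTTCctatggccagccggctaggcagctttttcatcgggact
Eif2ak2: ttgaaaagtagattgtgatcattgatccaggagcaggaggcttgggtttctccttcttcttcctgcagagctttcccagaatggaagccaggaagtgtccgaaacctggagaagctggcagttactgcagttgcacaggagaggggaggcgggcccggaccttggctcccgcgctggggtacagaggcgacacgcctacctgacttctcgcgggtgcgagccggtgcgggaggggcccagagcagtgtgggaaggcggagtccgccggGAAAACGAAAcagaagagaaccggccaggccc
Adar: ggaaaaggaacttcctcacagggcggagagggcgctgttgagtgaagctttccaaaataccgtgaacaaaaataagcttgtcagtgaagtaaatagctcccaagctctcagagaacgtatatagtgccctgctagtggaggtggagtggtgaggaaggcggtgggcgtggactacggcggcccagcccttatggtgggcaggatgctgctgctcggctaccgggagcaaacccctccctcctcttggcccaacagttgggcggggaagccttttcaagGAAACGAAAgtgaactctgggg
In Ifih1 the match GAAACAGAAA began 33 bases after the start, and in Eif2ak2 the match GAAAACGAAA began 19 bases after it. Ddx58 held GAAACGAAA 60 bases before its start and a match on the opposite strand, read here as TTTCGATTTC, 3 bases after it. Adar held GAAACGAAA 29 bases after the start of 1 of its 3 windows.

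All 3 RIG-I-like receptors were higher in the cKO libraries. Ifih1 (Entrez 71586, GRCm38 chromosome 2, 62595618 to 62646255), which encodes MDA5, had 4.73, 5.81 and 6.01 normalised reads in the Ctrl libraries and 21.2, 21.2 and 21.7 in the cKO libraries. The cKO libraries lay close together and far above Ctrl, 3.88-fold on the means (log2 fold change 1.79, SE 0.149, adjusted p = 1.37e-08). Ddx58 (Entrez 230073, chromosome 4, 40203777 to 40239825), which encodes RIG-I, had 12.9, 13.7 and 10.7 in Ctrl and 36.3, 25.7 and 32.0 in cKO. It was therefore 2.52-fold higher, with more spread among the cKO libraries than Ifih1 (log2 fold change 1.26, SE 0.143, adjusted p = 6.79e-07). Dhx58 (Entrez 80861, chromosome 11, 100694884 to 100704271), which encodes LGP2, had 7.70, 7.02 and 8.19 in Ctrl and 35.6, 27.3 and 31.7 in cKO. The difference was 4.12-fold on the means (log2 fold change 1.91, SE 0.139, adjusted p = 2.51e-09). Dhx58 shares 4.31% of its exon bases with the antisense gene Dhx58os, and strand was not used in counting, so these reads cannot be separated.

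Mavs (Entrez 228607, chromosome 2, 131234063 to 131248025), the adaptor through which RIG-I and MDA5 signal, was not called. It had 24.9, 28.4 and 23.0 normalised reads in Ctrl and 22.0, 21.4 and 23.3 in cKO, and the groups overlapped. The log2 fold change was -0.18 (SE 0.118, adjusted p = 0.208). This call depended on the scaling: the log2 fold change was -0.29 under median centring (adjusted p = 0.0443) and under quantile normalisation (adjusted p = 0.0470), and 0.01 with scaling to total reads (adjusted p = 0.933).

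Levels per kb of exon allow genes of different length to be compared, and by this measure each receptor stood higher relative to the adaptor in all cKO libraries than in any Ctrl library. The ratio of Dhx58 to Mavs was 0.316, 0.252 and 0.364 in the Ctrl libraries and 1.65, 1.30 and 1.39 in the cKO libraries, so Dhx58 lay below Mavs in all Ctrl libraries and above it in all cKO libraries. For Ddx58 the ratio to Mavs was 0.220 to 0.246 in Ctrl and 0.568 to 0.784 in cKO. For Ifih1 it was 0.0777 to 0.107 in Ctrl and 0.382 to 0.406 in cKO. Both stayed below Mavs with union exon lengths in every library. The 3 receptors together summed to 4.75 to 4.80 normalised reads per kb in Ctrl and to 18.6, 14.6 and 16.9 in cKO.

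**Figure D2:**
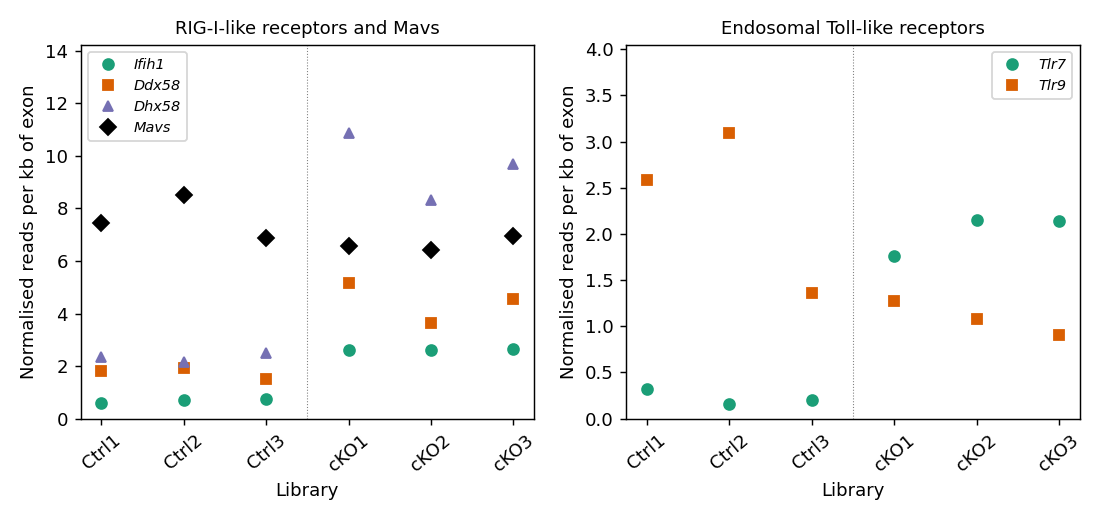
Normalised reads per kb of exon in each library for the RIG-I-like receptors with Mavs (left) and for Tlr7 and Tlr9 (right). Points are single libraries. Dhx58 lies below Mavs in the 3 Ctrl libraries and above it in the 3 cKO libraries, and Tlr7 lies below Tlr9 in Ctrl and above it in cKO.

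The double-stranded RNA effectors PKR and ADAR1 and the Z-form sensor ZBP1 were higher as well. Eif2ak2 (Entrez 19106, chromosome 17, 78850504 to 78882572) had 43.2, 46.0 and 48.2 normalised reads in Ctrl, against a mean of 103 ± 0.624 in cKO (SD, n = 3). Its 3 cKO libraries, with 1050, 1145 and 1210 reads, had the smallest coefficient of variation among the 10 genes, 0.608%, and the difference was 2.24-fold (log2 fold change 1.15, SE 0.0847, adjusted p = 2.82e-09). Adar (Entrez 56417, chromosome 3, 89714469 to 89753455) had 99.7, 88.5 and 90.8 in Ctrl and 155, 141 and 152 in cKO. It had the smallest relative rise of the 8 higher genes, 1.60-fold, from the highest Ctrl level in normalised reads (log2 fold change 0.68, SE 0.0809, adjusted p = 1.36e-06). The exons of Adar overlap those of Chrnb2 on the opposite strand over 16.8% of their bases, and those reads cannot be separated.

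Zbp1 (Entrez 58203, chromosome 2, 173206612 to 173218959) was a low-count gene, with 10, 7 and 13 reads in the Ctrl libraries and 52, 27 and 41 in the cKO libraries. In normalised reads it had 1.12, 0.758 and 1.34 in Ctrl and 5.12, 2.48 and 3.50 in cKO, and the groups did not overlap. The log2 fold change was 1.15 (SE 0.235, adjusted p = 0.000436). The added 1 understates the change of so low a gene, which was 3.45-fold on the means and 1.76 on the log2 scale without a pseudocount. Eif2ak2 shares 3.40% of its exon bases with the lincRNA gene Gm26637 and 0.92% with n-R5s29, and Zbp1 shares none with another annotated gene.

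Cgas (Entrez 214763, chromosome 9, 78430518 to 78443237), the cytosolic DNA sensor, was also low in Ctrl, with 14, 8 and 16 reads, and had 56, 73 and 51 reads in cKO. These correspond to 1.54, 0.859 and 1.64 normalised reads in Ctrl and 5.51, 6.63 and 4.34 in cKO. All 3 cKO libraries were above all 3 Ctrl libraries, 4.08-fold on the means (log2 fold change 1.47, SE 0.221, adjusted p = 1.91e-05). The gene shares 4.87% of its exon bases with the pseudogene Gm8093.

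The endosomal receptors moved in opposite directions. Tlr7 (Entrez 170743, chromosome X, 167303380 to 167330574), the receptor for single-stranded RNA, had 1.33, 0.657 and 0.844 normalised reads in Ctrl and 7.17, 8.79 and 8.73 in cKO. This was 12, 6 and 8 reads against 73, 97 and 103, and the largest change among the 10 genes (log2 fold change 2.26, SE 0.209, adjusted p = 5.14e-08). Without a pseudocount the log2 fold change was 3.18. Tlr9 (Entrez 81897, chromosome 9, 106222598 to 106226876), the receptor for CpG DNA, had 8.98, 10.8 and 4.72 in Ctrl and 4.44, 3.74 and 3.16 in cKO. Ctrl library 3 lay close to the cKO libraries and the other Ctrl libraries lay well above them (log2 fold change -0.88, SE 0.235, adjusted p = 0.00412). Without Ctrl library 2 the log2 fold change was -0.67 (adjusted p = 0.0351), and without Ctrl library 3 it was -1.19 (adjusted p = 8.73e-05). Per kb of exon, the ratio of Tlr7 to Tlr9 was 0.126, 0.0520 and 0.153 in Ctrl and from 1.38 to 2.35 in cKO. Tlr7 therefore lay below Tlr9 in every Ctrl library and above it in every cKO library.

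**Figure D3:**
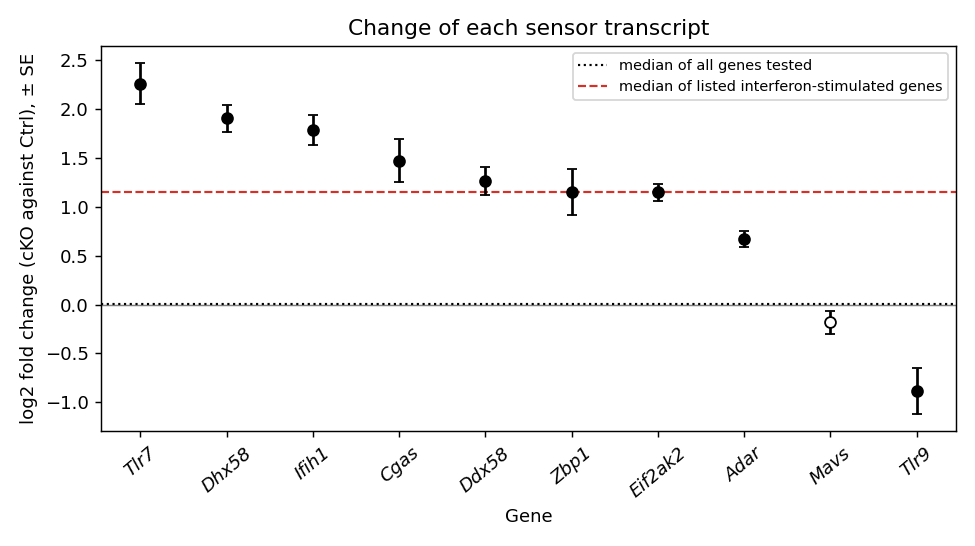
Log2 fold change of cKO against Ctrl on log2(normalised reads + 1) for the 10 sensor genes, with bars of 1 SE from limma (n = 3 per group), filled where called, with the median of all genes (dotted) and of the listed interferon-stimulated genes (dashed). Tlr7 has the highest value, 2.26, Mavs lies at -0.18 and Tlr9 at -0.88.

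In order of level per kb of exon, the Ctrl libraries ran from Adar (11.5 ± 0.728 normalised reads per kb, SD, n = 3) and Eif2ak2 (8.96 ± 0.493) through Mavs (7.61 ± 0.827) to Tlr9, Dhx58 and Ddx58, and the lowest were Ifih1, Cgas, Zbp1 and Tlr7. Eif2ak2 and Mavs overlapped in range, as did Tlr9 with both Dhx58 and Ddx58, and Cgas, Zbp1 and Tlr7 with each other. In the cKO libraries Eif2ak2 (20.1 ± 0.121) came before Adar (18.4 ± 0.922) and Dhx58 (9.63 ± 1.27), and Mavs (6.65 ± 0.290) followed. Tlr7 rose from the lowest place, at 0.231 ± 0.0848 per kb, to 2.02 ± 0.225 per kb, above Cgas, Tlr9 and Zbp1, which overlapped each other in neighbouring pairs. These orders used all exon bases of a gene. With the length of its longest transcript, Adar (25.2) came before Eif2ak2 (23.8) in cKO, Ddx58 (8.09) came before Mavs (7.28), and Zbp1 came just before Tlr9 (1.09). In Ctrl the order of the middle genes turned round, to Ddx58 (3.21), Dhx58 (3.17) and Tlr9 (2.34). By this length the library ranges of the genes that changed places overlapped in each case, so these orders do not set them apart.

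The sensors did not share one ranking of the libraries within a group. Among the cKO libraries, library 1 was highest for Ddx58, Dhx58, Zbp1, Adar and Tlr9, library 2 for Eif2ak2, Cgas and Tlr7, and library 3 for Ifih1 and Mavs. Some sensors did share a full order: Ddx58, Dhx58, Zbp1 and Adar were each highest in cKO library 1, then 3, then 2. The coefficient of variation among cKO libraries was 1.29% for Ifih1, against 6.50% that counting alone would give. It was 17.2% for Ddx58 and 13.2% for Dhx58, against 5.38% and 5.37% from counting, and 36.0% for Zbp1 against 15.8%. Adar (5.02% against 2.46%) and Cgas (20.8% against 12.9%) also varied more than counting gives, and Tlr7 (11.1% against 10.5%) and Tlr9 (16.9% against 15.6%) lay close to it. Eif2ak2 (0.608% against 2.97%) and Mavs (4.36% against 6.38%) lay below it, as Ifih1 did. With 3 libraries a group these coefficients are themselves imprecise, and they carry no test. In Ctrl, Tlr9 had a coefficient of variation of 38.1% against 11.3% from counting, whereas Tlr7 had 36.7% against 34.0%.

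Profiles over the 6 libraries were compared with those of 12313 other genes, by the Euclidean distance between mean-centred log2 values. The nearest gene was Pank3, a pantothenate kinase, for Mavs (distance 0.0366), and Prkdc, the catalytic subunit of DNA-dependent protein kinase, for Adar (0.0666). For Eif2ak2 it was the kinase gene Lrrk1 (0.0817), for Ifih1 it was Ndufaf6, an assembly factor of respiratory complex I (0.122), and for Ddx58 it was Coq6, an enzyme of ubiquinone synthesis (0.160). Dhx58 lay nearest to Gbp5, an interferon-inducible GTPase (0.239), and Tlr7 to the GTPase gene Gimap8 (0.234). The nearest gene was Cdc14b for Zbp1 (0.259), E430016F16Rik for Cgas (0.229) and Endog for Tlr9 (0.390). These distances describe 6 libraries in 2 groups and carry no test.

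Because UPF1 acts on transcripts with features that trigger nonsense-mediated decay, the annotated transcripts of the sensors were examined for them (GENCODE M21, GRCm38). A transcript annotated as a nonsense-mediated decay target was present for 2 of the 10 genes, Mavs (1 of 4 transcripts) and Cgas (1 of 3), and for 28.9% of 12155 genes. The share was 36.9% among all genes called higher and 22.0% among all genes called lower. An exon junction more than 50 bases after the stop codon was found in no sensor gene and in 0.619% of 11959 coding genes, in the transcript used for each gene. Length of the 3′ UTR, another feature tied to UPF1, ran from 122 bases in Tlr7 to 2575 in Eif2ak2, against a median of 838. Tlr7, with the largest rise, stood at percentile 9.92 of 3′ UTR length among all genes. Eif2ak2, Cgas (2399 bases), Adar (2271 bases) and Ifih1 (2111 bases) stood at percentiles from 79.5 for Ifih1 to 85.1 for Eif2ak2. Dhx58 and Tlr9, which moved in opposite directions, both had 273 bases.

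Genes through which the sensors act were called in both directions. Of 115 partner genes in 6 lists, 41 were higher (35.7%) and 30 were lower (26.1%), with a median log2 fold change of 0.07. These shares are to be read against the 27.7% and 25.0% of all genes. The balance depended on the scaling: 58 were higher and 16 lower with scaling to total reads, and 34 were higher and 37 lower under median centring. As a reference for interferon-stimulated genes, a list of 30 was used, of which 29 had a row: 28 were higher, with a median log2 fold change of 1.15, and Ifit2 was not called (0.23, adjusted p = 0.0869). Irf7 stood both in this reference and among the partners. The reference list was chosen with earlier results of these data known, so its count and median are not an independent yardstick. Rows had to exceed 0.5 in at least 3 libraries. Ifit1, with 0 or 1 read in each Ctrl library, passed only through the cKO libraries, which fixed its direction. Ifit3 also needed the cKO libraries to pass.

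Among regulators and signalling genes of the RIG-I-like receptors, 12 of 33 were higher and 6 were lower, with a median of 0.07. Ddx60, an interferon-induced helicase linked to RIG-I, rose from 4.73 ± 0.674 to 29.8 ± 4.37 normalised reads (SD, n = 3, log2 fold change 2.42, adjusted p = 5.44e-10). Irf7, a transcription factor for interferon genes, rose from 3.50 ± 0.861 to 11.3 ± 3.31 (log2 fold change 1.43, adjusted p = 2e-05). Ikbke, the gene of the kinase IKKε, rose from 14.8 ± 1.81 to 35.5 ± 2.44 (log2 fold change 1.21), and Tbkbp1, a TBK1-binding adaptor, had a log2 fold change of 1.61. These genes were picked as the largest called changes of the list, so smaller values in its other genes follow from that choice. Further partners were named after their values had been seen. Trim14, Rnf135 and Traf3 were higher, with log2 fold changes of 0.96, 0.92 and 0.73 (limma adjusted p = 2.39e-05, 0.000424 and 1.32e-06). Tbk1 had a log2 fold change of 0.10 (adjusted p = 0.343), Trim25, a ubiquitin ligase for RIG-I, had 0.10 (adjusted p = 0.294), and Irf3 had -0.23 (adjusted p = 0.0389).

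Of 23 measured genes of the cGAS-STING and cytosolic DNA list, 6 were higher and 10 were lower, with a median of -0.08. Samhd1, a deoxynucleotide triphosphohydrolase, fell from 46.2 ± 1.56 to 25.2 ± 2.36 normalised reads (log2 fold change -0.85, adjusted p = 1.79e-06), and Enpp1, which degrades cGAMP, had a log2 fold change of -0.83. Ifi35, an interferon-induced protein, had 0.87 and the lysosomal nuclease gene Dnase2a had 0.78. Sting1, the receptor of cGAMP, was named after its values had been seen. It ranged from 18.7 to 24.6 in Ctrl and from 13.1 to 16.7 in cKO (log2 fold change -0.60, adjusted p = 0.00166), so Cgas and Sting1 moved in opposite directions.

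In the endosomal Toll-like receptor list, 10 of 29 measured genes were higher and 8 were lower, with a median of 0.27. Cd180, a TLR4-related receptor of B cells, fell from 24.1 ± 0.879 to 9.11 ± 1.35 (log2 fold change -1.32, adjusted p = 2.91e-07). Pld4, an endosomal exonuclease, had -0.91. Slc15a4, an endolysosomal transporter needed for TLR7 and TLR9 signalling, rose from a mean of 47.3 to 87.8 (log2 fold change 0.88), and Irf5, a transcription factor downstream of TLR7, had the same log2 fold change of 0.88 (adjusted p = 4.02e-06). Unc93b1, which carries both receptors to endosomes, and the adaptor gene Myd88 were named after their values had been seen. Unc93b1 had a log2 fold change of 0.33 (adjusted p = 0.00520) and Myd88 had 0.27 (adjusted p = 0.0960).

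Around PKR, 5 of 10 genes of the eIF2α kinase list were higher and 2 were lower, with a median of 0.15. Its largest changes were in the stress transcription factors Ddit3 (log2 fold change 3.29, adjusted p = 2.36e-14) and Atf4 (1.36, from a mean of 76.8 to 198), followed by Ppp1r15a, a phosphatase subunit that reverses eIF2α phosphorylation (0.75), and the kinase gene Eif2ak1 (-0.44). The paper describes Ddit3 as a known target of nonsense-mediated decay. The part of PKR in the changes of this list was not tested. In the ZBP1 death list, 3 of 7 genes were higher and 1 was lower, with a median of 0.17. Mlkl, the effector of necroptosis, rose from 5.56 to 21.9 on the means (log2 fold change 1.81, adjusted p = 9.87e-09), Tnfaip3 had 0.80, Ripk1 had 0.50 and Fadd had -0.71. Ripk3, named after its value had been seen, had 0.17 (adjusted p = 0.157). Among 14 measured genes of double-stranded RNA binding and removal, 5 were higher and 3 were lower, with a median of 0.07. Of these, Adarb1, a further RNA-editing enzyme, had a log2 fold change of 0.58 (adjusted p = 0.0107), and Ttc37, a subunit of the SKI complex, had 0.49 (adjusted p = 0.000117).

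**Figure D4:**
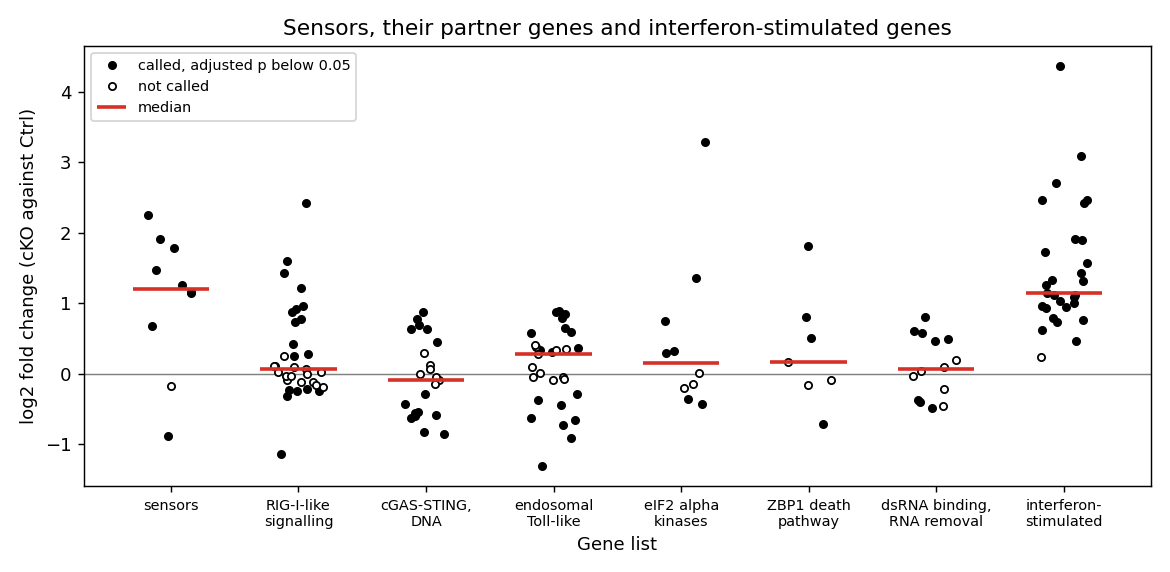
Log2 fold change of cKO against Ctrl, on log2(normalised reads + 1), for each measured gene of the sensors, of the 6 partner lists and of the interferon-stimulated reference list. Each point is 1 gene, filled where called, and red lines are medians. The partner lists hold values on both sides of 0, from -1.32 for Cd180 to 3.29 for Ddit3, and the reference list has a median of 1.15.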

How the data were processed

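RNA-seq after rRNA depletion of sorted early LPre-B cells was analysed for 3 Ctrl and 3 cKO libraries, grouped by the genotype in the labels. Per the labels and the submitters' processing notes, the authors trimmed single-end reads with cutadapt 4.0, aligned them with HISAT2 to mm10, counted them without strand with featureCounts 2.0.1 and used limma 3.48.0. The deposited signal is a normalised read count per Entrez gene: 0.5 was added to the reads of a gene, and the sum was scaled by the effective size of its library, expressed per 1e6 reads. This scale was read from the values, and whole reads were recovered for 100.0% of them within 0.05. Every row exceeded 0.5 in at least 3 libraries, so genes below that level are not covered.

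From these values, log2(value + 1) was fitted in R 4.3.3 with limma 3.58.1 (empirical Bayes with trend and robust settings, group as the only term), and p-values were adjusted by the Benjamini-Hochberg method over all 13426 rows. The fit was tested on simulated data. Symbols came from RefSeq for 13008 rows and from GENCODE for 3, and 415 rows were not named. Exon lengths came from GENCODE M21 and not from RefSeq exons as the design stated. Coefficients of variation from counting assume Poisson reads and cover counting error only.

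The 10 genes and all lists were chosen with earlier results of these data known. At most 4 called partner genes were named in each list, those with the greatest size of log2 fold change, and each sensor was given its nearest gene. Some items that this rule selects are not reported here. Alternatives were voom, edgeR 4.0.16 and DESeq2 1.42.0 on recovered reads, other scalings, pseudocounts and filters, a replicate block, and leaving out each library.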

Additional observations from a re-analysis of the deposited data

How the results depend on the processing

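The 8 higher sensors and Tlr9 were called in the same direction under all 17 alternatives. Log2 fold changes ranged from 1.63 to 1.97 for Ifih1, 1.15 to 1.45 for Ddx58, 1.78 to 2.09 for Dhx58, 1.04 to 1.35 for Eif2ak2, 0.94 to 1.82 for Zbp1, 0.57 to 0.88 for Adar, 1.30 to 2.06 for Cgas, 2.09 to 3.20 for Tlr7 and -1.19 to -0.67 for Tlr9. Mavs was called lower, at -0.29, under median centring (adjusted p = 0.0443) and quantile normalisation (adjusted p = 0.0470), which made 2 sensors lower. Scaling to total reads gave 1936 genes lower, against 3351, and 16 partner genes lower, against 30. Upf1 lost its call without the trend (0.31, adjusted p = 0.0707) and under median centring (0.20, adjusted p = 0.0645). The cause was not tested. Leaving out 1 library gave 3224 to 3643 genes higher, 2867 to 3350 lower, 35 to 43 partner genes higher and 23 to 30 lower, and 8 sensors higher and 1 lower each time. With the longest transcript as length, levels per kb in Ctrl and cKO were 15.7 and 25.2 for Adar, 3.21 and 8.09 for Ddx58, 3.17 and 13.1 for Dhx58, 10.6 and 23.8 for Eif2ak2, 1.01 and 3.91 for Ifih1, and 7.28 in cKO for Mavs.

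Deviations of same-numbered libraries from their group means correlated at 0.0821, -0.0298 and -0.0208. Same-numbered libraries carry neighbouring numbers in their names. With so few libraries, these correlations cannot show whether such libraries were handled together. With the replicate block 3668 genes were higher and 3321 lower, 40 and 31 partner genes were called, and 8 sensors were higher and 1 lower. Read depth limits Zbp1, Cgas and Tlr7, which had 6 to 16 reads in each Ctrl library.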

Other observations

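Values of 4 Toll-like receptors other than Tlr7 and Tlr9 were chosen for mention after they had been seen. Tlr6, a surface receptor for lipopeptides, had 1.78 ± 0.481 normalised reads in Ctrl and 3.86 ± 1.22 in cKO, SD, n = 3, without overlap (log2 fold change 0.79, adjusted p = 0.00769 by limma). Tlr2, its partner receptor, ranged from 2.43 to 4.19 in Ctrl and from 4.37 to 6.45 in cKO (log2 fold change 0.59, adjusted p = 0.0270). Tlr13, an endosomal receptor for bacterial ribosomal RNA, overlapped between the groups, at 0.584 to 1.67 normalised reads in Ctrl and 1.48 to 2.48 in cKO (log2 fold change 0.58, adjusted p = 0.0470), and Tlr4, the lipopolysaccharide receptor, ranged from 9.93 to 11.1 in Ctrl and from 12.2 to 15.3 in cKO (log2 fold change 0.35, adjusted p = 0.0524). Neutrophils express several of these receptors, and the neutrophil marker sum was 16.0 to 136 in Ctrl and 361 to 501 in cKO. Their part in these values was not tested.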
